A study of Homo sapiens with 12 samples.

Results

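The comparison described here sets THP1 cells that had been co-cultured with senescent endothelial cells (senECs) against THP1 cells kept in mono-culture. THP1 is an established human monocytic leukemia line, labelled wild type. Its members were chosen by the sample labels, as the 3 senEC libraries (replicates 1, 2 and 5) and the 3 mono-culture libraries (replicates 1, 2 and 3), and make up 6 of the 12 libraries of the series. The other 6 libraries are co-cultures with control endothelial cells (control ECs, replicates 1, 2 and 3) and with senECs that had received EGCG, a catechin of green tea (replicates 1, 2 and 5). The senECs were commercial human umbilical vein endothelial cells (HUVECs) made senescent with etoposide, a topoisomerase inhibitor, while control ECs received DMSO. The endothelial cells were washed, counted and plated at 500000 per well, and 400000 THP1 cells sat above them in an insert with 1 µm pores, in complete endothelial medium. Mono-culture THP1 cells stood in the same medium without endothelial cells. After 24 h the THP1 cells of every group, mono-culture included, were taken out and given 100 ng/ml LPS for 2 h, so that no library shows unstimulated cells. The labels do not tie the replicates to separate cultures or days, and the p-values then measure the spread between these libraries, which may be technical.

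Monocytes sense LPS through the surface protein CD14, which hands it to TLR4, and answer within hours with cytokines under the control of NF-κB. Senescent cells secrete cytokines, growth factors, matrix proteins and vesicles, known together as the senescence-associated secretory phenotype. Among the pathways that such secreted factors can engage in monocytes are STAT3, the transcription factor behind the IL-6 receptor family, and C/EBPβ. The transwell lets soluble factors and small vesicles through.

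Library totals were 15439836 to 18159194 counts in mono-culture and 17441273 to 19126426 with senECs. Levels are given as CPM, the counts scaled to a common library size with TMM factors (counts per 1e6). For a gene without counts, a level of 0.155 to 0.187 CPM (3 counts, depending on the library) cannot be told from absence, counting error only. Replicate 5 of the senECs stood apart, with the lowest scaling factor of all 12 libraries (0.912) and the fewest genes with a count of the 6 (23418). Without it 26 of the 80 genes called below kept their call, and 16 of the 41 called genes that are named. For the other 25 named genes the adjusted p without it is given beside their values. The defining monocyte genes were present, with 18 of 18 markers tested, a summed level of 3988 to 4554 CPM in mono-culture and 4250 to 5552 CPM with senECs, and PTPRC between 285 and 336 CPM, CD33 between 61.9 and 79.3 CPM and ITGAM between 67.4 and 102 CPM. The exception was CD68, with 2 to 13 counts in each of the 6 libraries, where an antisense gene shares its exons and held 360 counts against 84 for CD68 over the 12 libraries. Most endothelial markers were at or near 0. Of the 22 markers, 14 to 15 held 5 counts or fewer in each of the 6 libraries, CDH5 had 1 count in 1 mono-culture library and none with senECs, and CLEC14A, SOX17 and MMRN1 had none at all. ESAM held 21 to 43 counts, NOS3 49 to 82 and APLN 26 to 45. ERG held 3, 11 and 8 counts in mono-culture and 19, 13 and 19 with senECs. Of the 16 markers that could be tested, 7 had a log2 fold change above 0 and 9 below, and 0 were called. In edgeR 2 had an unadjusted p under 0.05 in the higher direction and 0 in the lower, beside 5.76% and 5.24% of all genes tested. The summed level of the 16 markers was 28.5 to 33.7 CPM in mono-culture and 32.4 to 41.6 CPM with senECs. EGFL7, which monocytes also express here, made up 17.8 to 21.7 CPM of it in mono-culture and 22.04 to 30.4 CPM with senECs, and without EGFL7 the sums were 9.96 to 12.2 CPM and 10.4 to 11.2 CPM. In bulk libraries, fewer cells with a transcript and less of it per cell cannot be told apart.

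With senECs, levels of the transcription factor POU2F2, the chaperone clusterin (CLU) and the mucin MUC1 were higher than in mono-culture. The receptor kinase AXL was lower. Of the 25873 genes tested, 80 passed an adjusted p of 0.05 in edgeR's quasi-likelihood test, which is 0.309%, and these are the genes named as called unless DESeq2 is given. Of these, 50 were higher with senECs (0.193%) and 30 lower (0.116%). Changes were moderate, with a median log2 fold change of 0.81 among the higher genes and -0.85 among the lower ones. Above 2-fold higher were 16 genes, and 9 were lower by more than that factor. At an unadjusted p under 0.05 stood 2847 genes (11%), and the 3 senEC libraries did not overlap the 3 mono-culture libraries in 4317 genes (16.7%), among them each of the 80. Called genes were well expressed, with a median level of 37.3 CPM beside 1.87 CPM over all genes tested, and 77 of them code for proteins. The number of called genes depended on single libraries. It was 28 without senEC replicate 5, 30 without senEC replicate 2 and 260 without senEC replicate 1, and 52, 22 and 30 without mono-culture replicates 1, 2 and 3, and 18 genes were called in each of these 6 fits. Of the 80, 22 kept their call without mono-culture replicate 2, 27 without mono-culture replicate 3 and 29 without senEC replicate 2. DESeq2 called 347 genes (1.34%), the 80 included. With a term for the replicate number edgeR called 709 genes, or 1407 with numbers 3 and 5 joined.

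**Figure D1:**
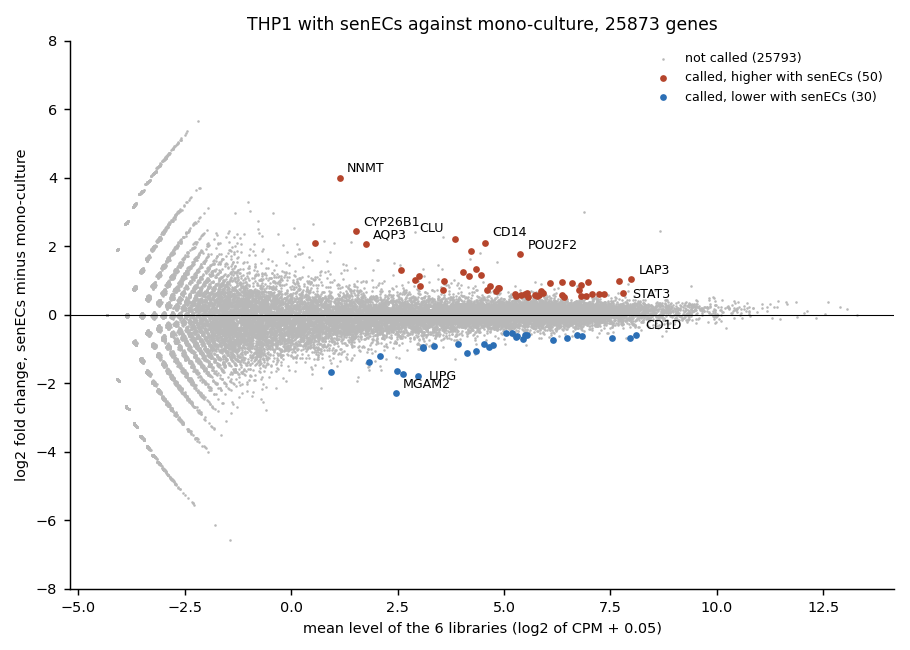
Log2 fold change of 25873 genes, senECs minus mono-culture, against the mean level of the 6 libraries (log2 of CPM plus 0.05), 1 point per gene. The 50 genes called higher (red) and 30 called lower (blue) lie mostly among well expressed genes with moderate changes, from -2.30 for MGAM2 to 4.00 for NNMT.

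In most called genes the senEC library farthest from mono-culture was replicate 5. This held for 32 of the 50 higher genes and 16 of the 30 lower genes, beside 14 and 11 for replicate 2 and 4 and 3 for replicate 1.

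Transcription regulators were among the clearest changes. POU2F2, known as OCT2 and a factor that binds the octamer motif, stood at 19.2, 17.4 and 20.2 CPM in mono-culture and at 70.8, 68.3 and 53.8 CPM with senECs. The lowest senEC library was thus more than 2-fold above the highest mono-culture library. Its log2 fold change was 1.77 (SE 0.12, adjusted p = 1.08e-07), the smallest adjusted p of the comparison, and it was called in all 6 fits that leave out 1 library. POU2F2 lies on chromosome 19 from 42086110 to 42196585 on the minus strand (GRCh38, GENCODE release 29). Its relative POU2F1 did not pass, with a log2 fold change of -0.24 (SE 0.13, adjusted p = 0.531). Among the 10 measured octamer factors and CD1 genes POU2F2 was called higher and CD1D lower, with a median of 0.03, or -0.49 without senEC replicate 5.

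STAT3 was at 182, 170 and 175 CPM in mono-culture and at 268, 279 and 269 CPM with senECs, and rose by 0.63 on the log2 scale (SE 0.10, adjusted p = 0.0061). Replicates of each group lay close together and the groups did not overlap, as in each of the 80 called genes. SBNO2, a transcriptional coregulator known to be induced through STAT3, was at 141, 119 and 130 CPM and then at 196, 199 and 199 CPM (0.60, SE 0.10, adjusted p = 0.00852). Without mono-culture replicate 2 the adjusted p was 0.0619 for STAT3 and 0.104 for SBNO2, and that of SBNO2 was 0.0683 without mono-culture replicate 3 and 0.0513 without senEC replicate 2. Of 30 measured genes of the STAT3 and IL-6 family these 2 were called higher and 0 lower in edgeR, and 4 higher and 1 lower in DESeq2. In edgeR 10 had an unadjusted p under 0.05 in the higher direction and 1 in the lower, beside 5.76% and 5.24% of all genes tested. The median of the 30 was 0.14, or 0.04 without senEC replicate 5, beside -0.02 over all genes tested. With the libraries numbered 1 and 2 only it was 0.11. With a term for the replicate number it was 0.10, or 0.15 with numbers 3 and 5 joined. Some other members are named after their values were seen, and none of them passed in edgeR. SOCS3, the feedback inhibitor of the pathway, had a log2 fold change of 0.96 (SE 0.32, adjusted p = 0.273), the kinase PIM1 of 0.62 (SE 0.15, adjusted p = 0.0842) and the receptor chain IL4R of 0.65 (SE 0.15, adjusted p = 0.0599). JAK2, a kinase upstream of STAT3, had one of -0.39 (SE 0.11, adjusted p = 0.158). PIM1, IL4R and JAK2 were called in DESeq2.

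BCL3, an IκB family protein that binds NF-κB p50 and p52 dimers in the nucleus, rose from 58.3, 64.1 and 79.0 CPM to 111, 117 and 155 CPM (0.93, SE 0.13, adjusted p = 0.00208). It was the only one of 33 NF-κB regulators and targets that was called in edgeR or in DESeq2, and 29 of the 33 had a fold change above 0, beside 48% of all genes tested, with a median of 0.23. Without senEC replicate 5 the median of this list was 0.00. With the libraries numbered 1 and 2 only it was 0.20. With a term for the replicate number it was 0.21, also with numbers 3 and 5 joined. TNFAIP3, a feedback inhibitor of NF-κB, had a log2 fold change of 0.08 (SE 0.20), and NFKB1, the gene of p50, one of 0.24 (SE 0.25).

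CEBPB, a bZIP factor of the acute-phase response, rose from 44.2, 49.4 and 47.2 CPM to 61.0, 69.7 and 88.3 CPM (0.64, SE 0.13, adjusted p = 0.0317). ID1, an inhibitor of basic helix-loop-helix factors and a target of BMP signalling, rose from 75.8, 76.5 and 89.0 CPM to 122, 132 and 181 CPM (0.85, SE 0.15, adjusted p = 0.0113). Both were highest in senEC replicate 5, and neither was called without it (adjusted p = 0.178 and 0.0567). They were the 2 called genes among 34 monocyte and macrophage regulators, whose median was 0.01. SPI1, the gene of the lineage factor PU.1, had a log2 fold change of 0.41 (SE 0.11, adjusted p = 0.135) and was called in DESeq2.

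**Figure D2:**
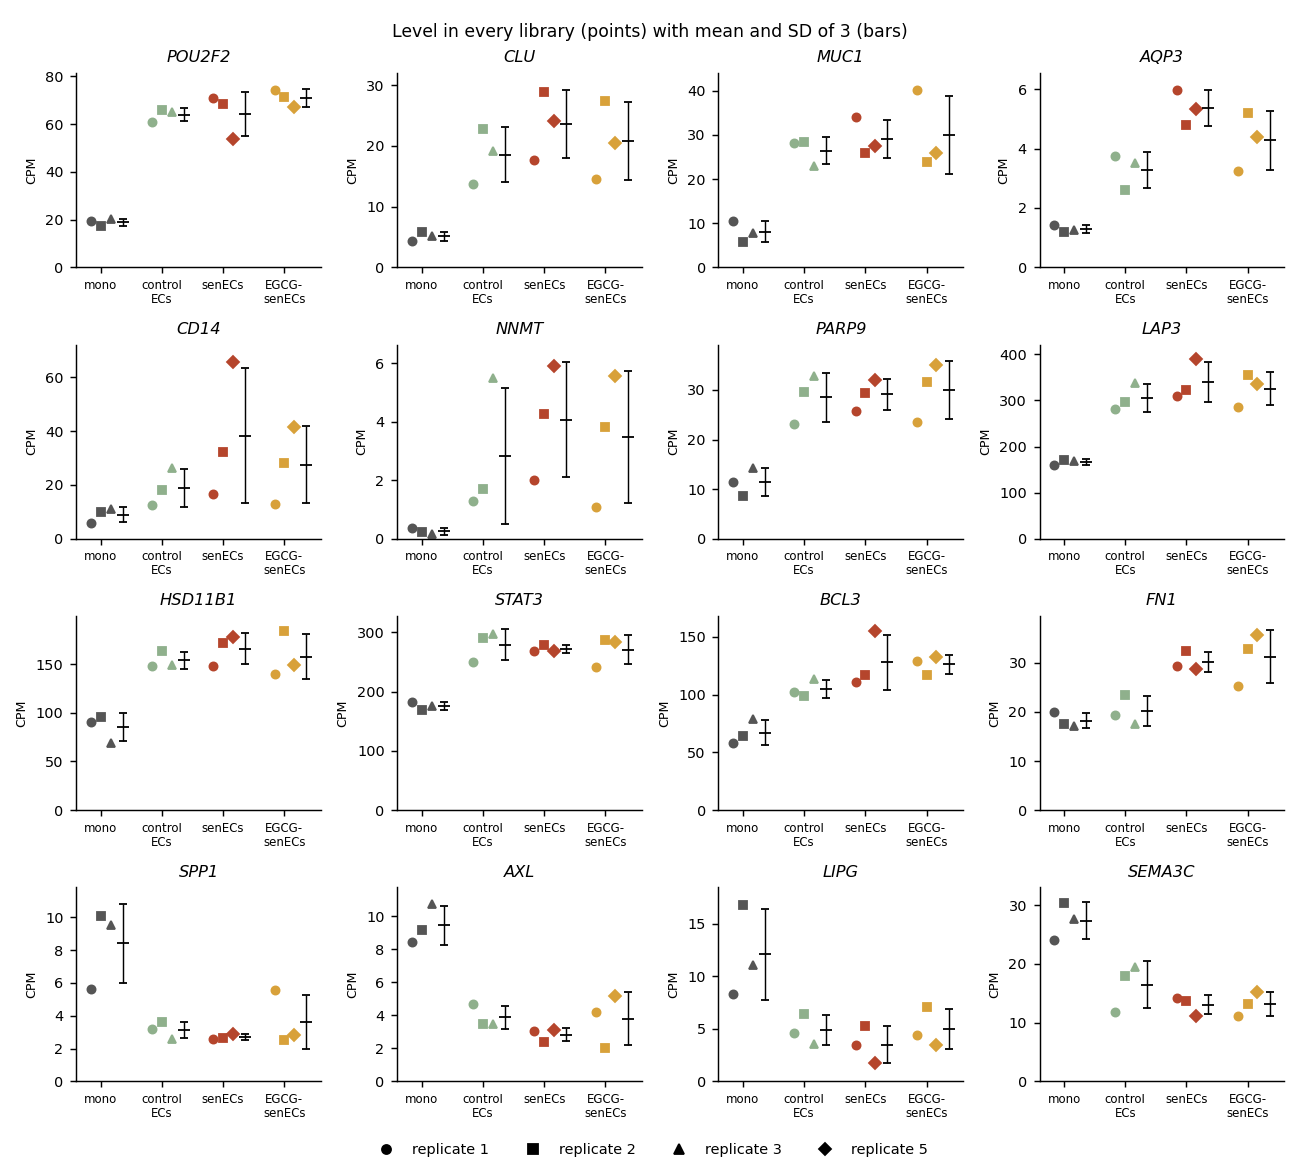
CPM of 16 genes in each of the 12 libraries (points, shape by replicate number), with the mean and SD of each group of 3 (bars), on axes that start at 0. The 3 senEC libraries lie above the 3 mono-culture libraries in the 12 genes of the upper rows and below them in SPP1, AXL, LIPG and SEMA3C. Every called gene has such a separation.

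The surface protein CD14 varied widely between libraries. Its levels were 5.91, 9.91 and 11.0 CPM in mono-culture and 16.6, 32.3 and 65.7 CPM with senECs. The groups did not overlap, as in each of the 80 called genes, but the senEC libraries differed 3.97-fold among themselves. The log2 fold change was 2.09 (SE 0.42, adjusted p = 0.0363), and without senEC replicate 5 it was 1.44 with an adjusted p of 0.251. CD14 was the called gene of the 23 members of the TLR4 pathway, whose median was 0.04, and DESeq2 called 3, CD14, MYD88 and IRAK1. TLR4 itself was at 27.3, 31.1 and 33.4 CPM and at 29.01, 40.5 and 48.5 CPM, with overlapping groups (0.36, SE 0.27, adjusted p = 0.669). The adaptor MYD88 did not overlap between groups, at 46.6, 43.4 and 55.6 CPM against 63.5, 65.4 and 67.9 CPM, and missed the threshold in edgeR (0.44, SE 0.11, adjusted p = 0.103) but passed it in DESeq2 (adjusted p = 0.0124).

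The promoter of CD14 is shown because it is one of 4 windows of higher genes, with those of ALPK1, DUSP3 and NABP2, that hold a STAT motif (TTCNNNGAA, searched on both strands). The promoter of LIPG is shown because it is one of 2 windows of lower genes, with that of SEL1L3, that hold the octamer ATGCAAAT, the motif of POU2F2. The 250 bases before each start site are from RefSeq (GRCh38.p14), 5′ to 3′ on the gene's strand, with the motif in capitals, at chr5:140633176-140633425 on the minus strand for CD14 and chr18:49561807-49562056 on the plus strand for LIPG.
CD14: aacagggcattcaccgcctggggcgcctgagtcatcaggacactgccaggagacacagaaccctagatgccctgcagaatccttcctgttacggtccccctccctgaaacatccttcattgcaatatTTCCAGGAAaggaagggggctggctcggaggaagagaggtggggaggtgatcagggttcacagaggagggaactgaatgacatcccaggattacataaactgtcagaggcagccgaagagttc
LIPG: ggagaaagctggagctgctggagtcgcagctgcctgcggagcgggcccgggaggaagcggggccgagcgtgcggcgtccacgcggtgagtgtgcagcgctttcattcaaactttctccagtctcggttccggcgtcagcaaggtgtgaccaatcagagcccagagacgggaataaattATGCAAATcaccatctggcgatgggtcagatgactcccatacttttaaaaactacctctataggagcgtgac
Windows of 250 bases before to 50 after the start site matched 13430 of the genes tested, 43 of them called higher and 27 called lower. The STAT motif lay in 6.76% of all windows, in 4 of the 43 and in 1 of the 27, that of ATP10A. The octamer lay in 1.54% of all windows, in 0 of the 43 and in 2 of the 27. The glucocorticoid receptor motif ACANNNTGT lay in 3.16% of all windows, in 2 of the 43 and in 0 of the 27. An AP-1 motif (TGANTCA) was found in 5.17% of all windows, in 2 of the 43, CD14 among them, and in 1 of the 27, and the E-box CACGTG in 9.47%, in 2 and in 5. A match is a run of letters and does not show that a factor binds. In GENCODE release 29 CD14 spans 140631728 to 140633701 and LIPG 49560699 to 49599182. Both printed stretches, placed by the RefSeq start sites, lie inside these spans.

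Clusterin, a secreted chaperone that also restrains the terminal complement complex, rose from 4.35, 5.76 and 5.23 CPM to 17.7, 28.9 and 24.1 CPM. The log2 fold change was 2.20 (SE 0.24, adjusted p = 0.00018). CLU was the called gene of 26 complement genes, whose median was 0.22, or -0.02 without senEC replicate 5. With the libraries numbered 1 and 2 only, that median was 0.20. With a term for the replicate number it was 0.23, or 0.13 with numbers 3 and 5 joined. C1QB, a subunit of C1q, was low, was called in DESeq2 and missed the threshold in edgeR, at 5, 24 and 11 counts in mono-culture and 29, 66 and 71 counts with senECs (2.08, SE 0.57, adjusted p = 0.15).

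MUC1, a transmembrane mucin, rose from 10.5, 5.81 and 7.82 CPM to 34.0, 25.9 and 27.6 CPM (1.86, SE 0.21, adjusted p = 0.000193). GCNT1, which builds the core 2 branch of O-glycans, rose from between 26.9 and 32.2 CPM in mono-culture to between 42.4 and 49.4 CPM with senECs (0.61, SE 0.11, adjusted p = 0.0179), and shares exon sequence with PRUNE2 on the opposite strand. CHST11, a sulfotransferase of chondroitin, rose from between 112 and 123 CPM to between 170 and 198 CPM (0.60, SE 0.11, adjusted p = 0.0217). SELPLG, the mucin-like ligand of P-selectin that carries core 2 glycans on leukocytes, rose from 11.8, 9.69 and 12.7 CPM to 16.6, 26.3 and 32.0 CPM (1.13, SE 0.21, adjusted p = 0.0213). Without senEC replicate 5 the adjusted p was 0.0831 for GCNT1, 0.102 for CHST11 and 0.136 for SELPLG. The 32 measured mucin and glycan genes had 3 called higher and 0 lower in edgeR, 5 higher and 0 lower in DESeq2, and a median of 0.01. ST6GALNAC5, a sialyltransferase outside that list, fell from 5.60, 6.08 and 6.06 CPM to 2.01, 2.95 and 2.66 CPM (-1.22, SE 0.25, adjusted p = 0.0404). It was called in 0 of the 6 fits without 1 library, with an adjusted p of 0.146 without senEC replicate 5.

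AQP3, a water and glycerol channel, rose from 1.43, 1.18 and 1.27 CPM to 5.99, 4.80 and 5.32 CPM (2.05, SE 0.26, adjusted p = 0.000915), with little spread in either group. NKG7, a granule protein best known from cytotoxic lymphocytes, rose from 9.33, 8.72 and 11.0 CPM to 16.7, 24.9 and 27.1 CPM (1.24, SE 0.17, adjusted p = 0.00173). CEACAM4, a granulocyte receptor with a signalling tail, rose from 3.36, 3.98 and 2.86 CPM to 6.19, 9.31 and 9.91 CPM (1.31, SE 0.22, adjusted p = 0.00969). NRG1, a ligand of ERBB receptors, rose from between 0.431 and 0.746 CPM in mono-culture to between 1.56 and 3.44 CPM with senECs (2.10, SE 0.43, adjusted p = 0.0384). Of these, AQP3 and NKG7 kept their call in each of the 6 fits without 1 library, CEACAM4 kept it in 3 and NRG1 in 1. Without senEC replicate 5 the adjusted p of CEACAM4 was 0.0571 and that of NRG1 0.247.

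AXL, a receptor kinase that binds GAS6 and restrains Toll-like receptor responses, fell from 8.45, 9.15 and 10.7 CPM to 3.05, 2.37 and 3.08 CPM (-1.74, SE 0.27, adjusted p = 0.0061) and was called in all 6 fits. SPP1, the secreted phosphoprotein osteopontin, fell from 5.66, 10.1 and 9.53 CPM to 2.58, 2.66 and 2.90 CPM (-1.63, SE 0.29, adjusted p = 0.0145). FN1, the matrix protein fibronectin, moved the other way, from 19.96, 17.5 and 17.2 CPM to 29.4, 32.5 and 28.8 CPM (0.73, SE 0.14, adjusted p = 0.0311). Of 37 matrix and adhesion genes tested, FN1 and SELPLG were called higher and SPP1 lower, and the median was 0.13, or -0.11 without senEC replicate 5. Without that library the adjusted p was 0.0555 for SPP1 and 0.0693 for FN1. With the libraries numbered 1 and 2 only, the median of the list was 0.13. With a term for the replicate number it was 0.12, or 0.13 with numbers 3 and 5 joined.

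CD1D, which presents lipid antigens to natural killer T cells, fell from 325, 355 and 312 CPM to 221, 234 and 208 CPM (-0.58, SE 0.11, adjusted p = 0.0311). With 331 CPM on average in mono-culture it was the most abundant of the called genes there. SEMA3C, a secreted semaphorin, fell from 24.1, 30.3 and 27.7 CPM to 14.2, 13.7 and 11.2 CPM (-1.07, SE 0.18, adjusted p = 0.00836). The lipase LIPG, which acts on phospholipids of HDL, fell from 8.33, 16.8 and 11.1 CPM to 3.46, 5.26 and 1.75 CPM (-1.79, SE 0.34, adjusted p = 0.0272). ADAMTS1, a secreted metalloprotease, fell from 38.5, 31.5 and 28.5 CPM to 23.2, 13.8 and 14.4 CPM (-0.93, SE 0.18, adjusted p = 0.0244). The groups did not overlap in any of these 4 genes, which held for each of the 80 called genes. Without senEC replicate 5 the adjusted p was 0.142 for CD1D, 0.0564 for SEMA3C, 0.136 for LIPG and 0.146 for ADAMTS1.

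NNMT, which methylates nicotinamide and consumes S-adenosylmethionine, was nearly absent from mono-culture, with 0.373, 0.215 and 0.165 CPM (6, 4 and 3 counts), and stood at 2.01, 4.28 and 5.92 CPM with senECs. Its fitted log2 fold change of 4.00 (SE 0.70, adjusted p = 0.0145) was the largest of the called genes and rests on those few mono-culture counts. CYP26B1, which degrades retinoic acid, rose from 0.870, 1.08 and 0.661 CPM to 1.75, 7.81 and 4.77 CPM (2.44, SE 0.52, adjusted p = 0.049). Both genes differed several-fold among the senEC libraries, with replicate 1 the lowest in each. Without senEC replicate 5 the adjusted p was 0.0571 for NNMT and 0.146 for CYP26B1.

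HSD11B1, which regenerates active cortisol from cortisone, rose from 90.8, 96.3 and 69.4 CPM to 148, 172 and 178 CPM (0.96, SE 0.13, adjusted p = 0.00163). It was the called gene of 23 glucocorticoid response genes, whose median was -0.01. FKBP5 and TSC22D3, well known targets of the glucocorticoid receptor, had log2 fold changes of 0.22 (SE 0.11, adjusted p = 0.463) and -0.02 (SE 0.13, adjusted p = 0.974). LAP3, a leucine aminopeptidase, rose from 160, 170 and 169 CPM to 309, 322 and 390 CPM (1.03, SE 0.11, adjusted p = 0.00018). Both enzymes were called in all 6 fits without 1 library.

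PARP9, an interferon-inducible ADP-ribosyltransferase, rose from 11.4, 8.61 and 14.3 CPM to 25.9, 29.4 and 32.0 CPM (1.35, SE 0.18, adjusted p = 0.00173). It was the called gene of 38 interferon-stimulated genes, of which 28 had a fold change above 0 and the median was 0.30, or 0.15 without senEC replicate 5. PARP9 and its neighbour DTX3L share exon sequence on opposite strands, and the counting is not stated to use strand. IFIT1, an antiviral gene of the same list, had 1, 5 and 7 counts in mono-culture and 12, 20 and 17 with senECs, and did not pass (1.91, SE 0.67, adjusted p = 0.294). Among 20 genes of the GBP and MHC class II type 0 were called in edgeR or in DESeq2, 2 had an unadjusted p under 0.05 in the lower direction beside 5.24% of all genes tested, and the median was -0.15, or -0.42 without senEC replicate 5.

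The 2 relatives METTL7B and METTL7A, both membrane-bound methyltransferases, moved in opposite directions. METTL7B rose from 12.99, 14.2 and 13.4 CPM to 27.2, 30.5 and 33.2 CPM (1.16, SE 0.16, adjusted p = 0.00173), and shares exon sequence with ITGA7. METTL7A fell from 11.1, 15.2 and 13.4 CPM to 7.33, 6.71 and 6.95 CPM (-0.92, SE 0.16, adjusted p = 0.0156), with an adjusted p of 0.0639 without senEC replicate 5. With mono-culture levels alike in CPM, the pair stood well apart in every senEC library.

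MGAM2, a relative of the glucosidase MGAM, had the largest fall, from 9.64, 5.92 and 11.7 CPM to 3.10, 0.752 and 1.63 CPM (-2.30, SE 0.43, adjusted p = 0.0217). SERPINB13, a protease inhibitor, fell from 2.11, 3.61 and 2.86 CPM to 0.774, 1.16 and 0.725 CPM (-1.69, SE 0.33, adjusted p = 0.0311). The synaptotagmin SYT2 fell by 1.39 on the log2 scale (SE 0.27, adjusted p = 0.0311), but shares exon sequence with PPP1R12B on the opposite strand. The other lower genes named by size were smaller changes. These were the progestin receptor PAQR8 at -1.12, the phospholipid flippase ATP10A at -0.97 and the copper transporter ATP7A at -0.93. DZANK1 was at -0.88 and TRANK1 at -0.85. In each of the 5 the highest senEC library lay below the lowest mono-culture library, which the naming rule required. ATP7A overlaps PGK1 and DZANK1 overlaps POLR3F in their exons. Without senEC replicate 5 the adjusted p was 0.113 for MGAM2, 0.166 for SERPINB13, 0.176 for SYT2, 0.225 for PAQR8, 0.203 for ATP10A and 0.0899 for TRANK1. GPRIN3 was the last of the higher genes named by size, with 4.02 to 5.97 CPM in mono-culture and 8.64 to 12.4 CPM with senECs (1.13, SE 0.22, adjusted p = 0.0298). GPRIN3 and ATP7A each kept their call in 3 of the 6 fits without 1 library. Without mono-culture replicate 2 the adjusted p was 0.143 for GPRIN3 and 0.104 for ATP7A.

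The 17 genes that the study displayed for inflammatory pathways were short of the threshold in edgeR without a term for the replicate number. The list was chosen on these samples and so is no independent evidence of direction. It had 0 called in that fit and 1 in DESeq2, MYD88, and 5 genes with an unadjusted p under 0.05 in the higher direction beside 5.76% of all genes tested. With a term for the replicate number edgeR called 4, or 6 with numbers 3 and 5 joined. Of the 17, 15 had a fold change above 0 and the median was 0.36, while without senEC replicate 5 the median was -0.03. Of the 5 transcripts that it measured by qRT-PCR, 0 were called in edgeR or in DESeq2 and 0 had an unadjusted p under 0.05.

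The spread between libraries of 1 group was wide for these genes. IL1B, the gene of interleukin-1β, was at 131, 270 and 611 CPM in mono-culture and at 172, 235 and 866 CPM with senECs (0.33, SE 0.63, adjusted p = 0.907). CXCL8, a neutrophil chemokine, was at 280, 569 and 613 CPM and at 276, 432 and 931 CPM (0.16, SE 0.42, adjusted p = 0.933). In both genes the groups overlapped, replicate 1 was lowest in each group, and the libraries numbered 3 and 5 were highest. IL6 was at or below 0.604 CPM in each of the 6 libraries (0.05, SE 0.91). IL23A was at 11.1, 23.6 and 32.8 CPM and at 8.77, 15.8 and 28.2 CPM (-0.37, SE 0.44, adjusted p = 0.829), and IL12B had a log2 fold change of -0.15 (SE 0.52) and IL1A of -0.39 (SE 0.72).

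The summed level of 37 cytokines and chemokines was 1039, 1872 and 2626 CPM in mono-culture and 1200, 1668 and 3979 CPM with senECs, so that the libraries of 1 group differed by more than the groups did. Of these 37, 0 were called in edgeR or in DESeq2 and 3 had an unadjusted p under 0.05, each in the higher direction, beside 5.76% of all genes tested. With a term for the replicate number edgeR called 4 of them, or 8 with numbers 3 and 5 joined. The median of the 37 was 0.16, or -0.33 without senEC replicate 5. With the libraries numbered 1 and 2 only it was -0.05. With a term for the replicate number it was 0.09, or 0.14 with numbers 3 and 5 joined. The receptor genes IL1R1, OSMR and IL7R, from the study's display, had larger fold changes without passing in the main edgeR fit. Receptors as a class did not shift. The list of 30 cytokine and growth factor receptors had a median of 0.03, with 16 above 0 and 14 below. In the edgeR fits with a term for the replicate number IL1R1, OSMR and IL7R passed. IL1R1 was at 2.98, 2.37 and 3.64 CPM and at 4.49, 5.26 and 7.43 CPM (0.93, SE 0.29, adjusted p = 0.224), and OSMR, the oncostatin M receptor chain, at 0.870, 0.754 and 1.10 CPM and at 1.60, 2.83 and 2.12 CPM (1.26, SE 0.38, adjusted p = 0.217). Neither overlapped between the groups. Of the 17 genes that the study displayed, 4 did not overlap, each higher with senECs, beside 16.7% of all genes tested in either direction. IL7R overlapped, at 1.06, 2.96 and 8.04 CPM against 2.58, 13.2 and 43.3 CPM (2.27, SE 0.94, adjusted p = 0.383).

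Of the remaining genes on that list, CCL2 had a log2 fold change of 0.93 (SE 0.58), MMP9 of 1.59 (SE 0.77), CASP5 of 1.85 (SE 0.73), NOD2 of 0.38 (SE 0.24), CCL5 of 0.27 (SE 0.25) and SAA2 of 0.26 (SE 0.42). The adjusted p was 0.364 for CASP5 and larger for each of the other 5.

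**Figure D3:**
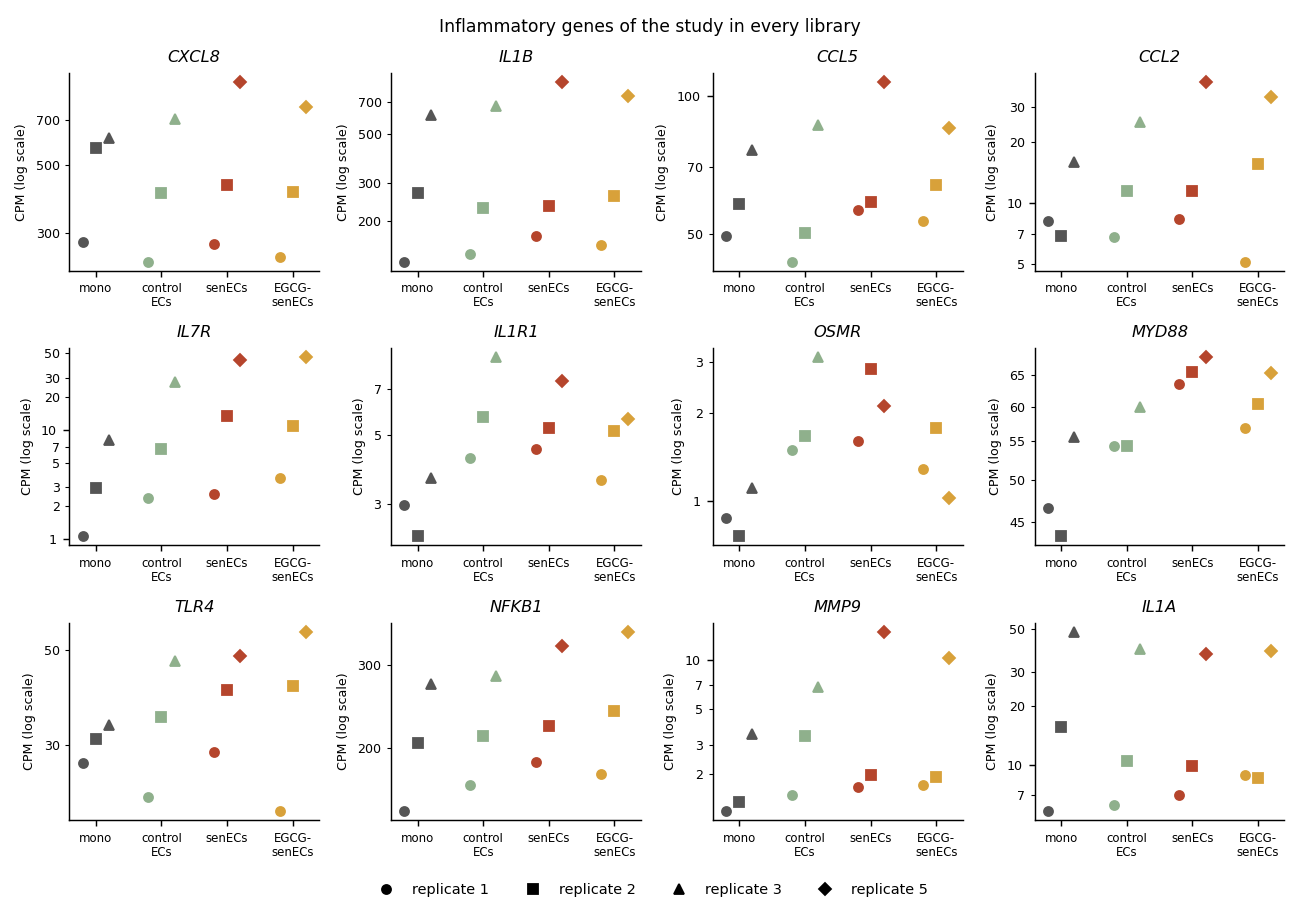
CPM on log scales of 12 inflammatory genes that the study followed, in each of the 12 libraries (points, shape by replicate number). IL1B and CXCL8 span 131 to 611 and 280 to 613 CPM within mono-culture alone and overlap between groups, while MYD88, IL1R1 and OSMR do not overlap between mono-culture and senECs. Of all genes tested, 16.7% do not overlap.

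The alarmin genes S100A8 and S100A9, which encode the subunits of calprotectin, had large fold changes that did not pass. S100A9 was at 71.7, 99.1 and 206 CPM in mono-culture and at 212, 434 and 1423 CPM with senECs (2.45, SE 0.63, adjusted p = 0.121). S100A8 was at 8.89, 16.3 and 53.7 CPM and at 33.7, 77.9 and 521 CPM (3.00, SE 0.91, adjusted p = 0.211). In S100A9 the lowest senEC library lay just above the highest mono-culture library, and in S100A8 the groups overlapped. Their list of S100, haptoglobin and inflammasome genes had 0 of 20 called in edgeR and 1 in DESeq2, S100A10, 9 with an unadjusted p under 0.05 in the higher direction beside 5.76% of all genes tested, and a median of 0.42, or 0.12 without senEC replicate 5. The S100 genes are named after their values were seen.

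Genes of cholesterol synthesis and uptake had mostly negative fold changes with senECs. STARD4, a sterol transport protein and a target of SREBP2, fell from 107, 146 and 128 CPM to 86.2, 82.5 and 83.9 CPM (-0.59, SE 0.12, adjusted p = 0.0433), and had an adjusted p of 0.161 without senEC replicate 5. It was the called gene of 31 genes of cholesterol and fatty acid synthesis in edgeR, and DESeq2 called 3, each lower. A further view of that list is its direction, with 24 of 31 fold changes below 0, a median of -0.23, and 9 genes with an unadjusted p under 0.05 in the lower direction beside 5.24% of all genes tested. HMGCS1, a synthase of the mevalonate pathway named after its values were seen, was at 77.5, 99.3 and 82.6 CPM against 59.1, 72.6 and 56.9 CPM (-0.46, SE 0.12, adjusted p = 0.109). The libraries of the 2 groups did not overlap, which held for 16.7% of all genes tested. The median of the list was -0.18 without senEC replicate 5.

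Genes of energy metabolism and protein synthesis had small positive fold changes with 0 called in edgeR. Unadjusted p-values under 0.05 were seen in 15, 7 and 4 members of the first 3 lists below, each in the higher direction, beside 5.76% of all genes tested, and DESeq2 called 0 in these 3 lists. For the 71 nuclear genes of oxidative phosphorylation, 65 were above 0 and the median was 0.22, or 0.05 without senEC replicate 5. The 13 protein-coding genes of the mitochondrial genome were all above 0 with a median of 0.31, or 0.25 without that library. For 55 ribosomal protein genes the median was 0.21, or 0.00 without it. Their summed level was 57880 CPM in senEC replicate 5, beside 39419 and 41984 CPM in replicates 1 and 2 and 35864 to 43284 CPM in mono-culture. Glycolysis and hypoxia genes had a median of 0.21, and 0.13 without that library, with 12 of 31 at an unadjusted p under 0.05 in the higher direction beside the same 5.76%. DESeq2 called 6 of the 31, each higher. With the libraries numbered 1 and 2 only, the medians were 0.05 for nuclear oxidative phosphorylation and 0.06 for ribosomal protein genes. With a term for the replicate number these 2 medians were 0.18 and 0.20, or 0.21 and 0.20 with numbers 3 and 5 joined.

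**Figure D4:**
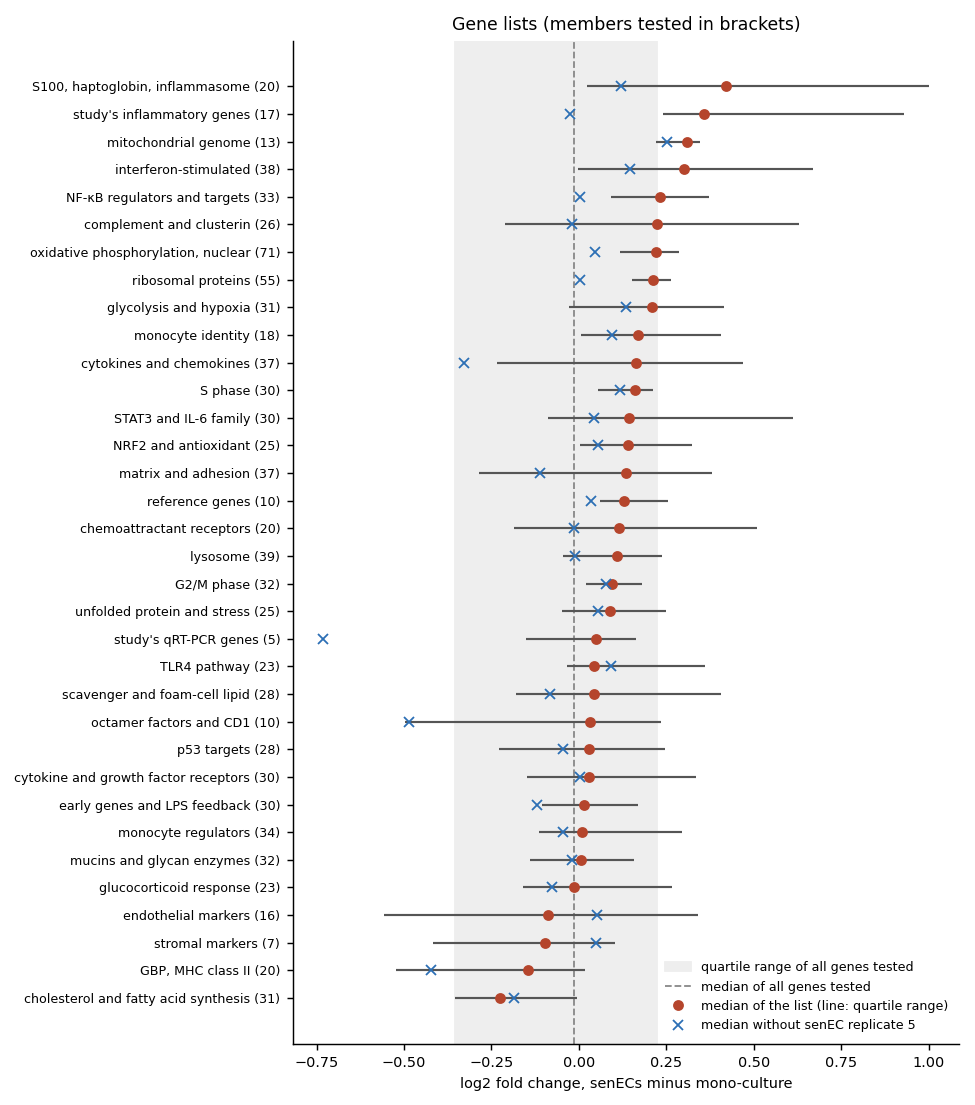
Median log2 fold change, senECs minus mono-culture, of 34 gene lists (red points, with a line from the lower to the upper quartile of each list), the same without senEC replicate 5 (blue crosses), and the median and quartile range of all genes tested (dashed line and grey band). The median of the study's inflammatory genes goes from 0.36 to -0.03 without replicate 5, while that of cholesterol and fatty acid synthesis goes from -0.23 to -0.18. With the libraries numbered 1 and 2 only, which is not plotted, these 2 medians are 0.28 and -0.20.

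Whether these changes belong to senescence of the endothelial cells or to co-culture as such is a question for the other groups. All 3 co-cultures were set against the same 3 mono-culture libraries, so that their fold changes share that term and are given side by side. Each of the 80 genes had the same sign with control ECs and with EGCG-treated senECs. The median absolute log2 fold change over the 80 was 0.84 with senECs, 0.62 with control ECs and 0.71 with EGCG-treated senECs, where the first value is raised by the choice of the genes on it. Against mono-culture, 37 genes were called with control ECs (0.143%) and 55 with EGCG-treated senECs (0.213%), and of the 80 genes 23 and 40 were among them.

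For POU2F2, STAT3 and MUC1 the side-by-side values were close, but these genes are examples. Other genes with a smaller adjusted p than STAT3 were mixed. With control ECs and with senECs, AQP3 had log2 fold changes of 1.34 and 2.05, NKG7 of 0.66 and 1.24, and CLU of 1.85 and 2.20. LAP3, with 0.87 and 1.03, and HSD11B1, with 0.85 and 0.96, lay closer together. POU2F2 stood at 60.7, 65.8 and 65.1 CPM with control ECs, within the range of the senEC libraries, and its log2 fold change against mono-culture was 1.76 there and 1.77 with senECs. STAT3 was at 250, 291 and 298 CPM with control ECs, and its fold changes were 0.67 and 0.63. MUC1 was at 28.1, 28.4 and 22.8 CPM, with fold changes of 1.72 and 1.86. The direct difference, senECs minus control ECs, was 0.01 (SE 0.11, unadjusted p = 0.934) for POU2F2, -0.04 (SE 0.10, unadjusted p = 0.697) for STAT3 and 0.14 (SE 0.19, unadjusted p = 0.477) for MUC1 in edgeR.

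The direct test of senECs against control ECs called 0 of 25873 genes in edgeR and 0 in DESeq2, both without a term for the replicate number. In this edgeR fit 1709 genes (6.61%) had an unadjusted p under 0.05, and the smallest adjusted p was 0.728. With a term for the replicate number edgeR called 153 genes, or 268 with numbers 3 and 5 joined. Of the 80 genes, 68 lay further from mono-culture with senECs than with control ECs, and 23 of these had an unadjusted p under 0.05. The 80 were chosen on the same senEC libraries, which favours that direction, so these counts describe the genes and do not test them.

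Among the 80 genes the smallest unadjusted p of this direct test belonged to FN1, which was at 19.5, 23.5 and 17.6 CPM with control ECs, overlapping mono-culture, and at 29.4, 32.5 and 28.8 CPM with senECs. The direct difference was 0.58 (SE 0.14, unadjusted p = 0.000622, adjusted p = 0.728). STARD4 was at 104, 117 and 128 CPM with control ECs and differed by -0.46 (SE 0.12, unadjusted p = 0.00125). In both genes the senEC libraries overlapped neither the control EC nor the mono-culture libraries. The share of all genes without overlap between senECs and control ECs was not counted.

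NKG7 was at 16.2, 15.2 and 14.4 CPM with control ECs and differed by 0.58 (SE 0.17, unadjusted p = 0.00226). AQP3 was at 3.74, 2.59 and 3.50 CPM and differed by 0.71 (SE 0.24, unadjusted p = 0.00724). CD14 was at 12.4, 18.0 and 26.2 CPM and differed by 1.02 (SE 0.40, unadjusted p = 0.0194). With control ECs, NKG7 and AQP3 lay between mono-culture and senECs without overlapping either, for which no share over all genes was counted. The CD14 libraries with control ECs overlapped those with senECs. None of these differences passed the adjustment over all genes in the fit without a term for the replicate number. In this direct comparison 6.61% of all genes tested had an unadjusted p under 0.05, and their median difference was -0.01. Cholesterol and fatty acid synthesis held 10 of 31 such genes (median -0.25), and nuclear oxidative phosphorylation 17 of 71 (0.23). NRF2 and antioxidant genes held 8 of 25 (0.20) and lysosomal genes 7 of 39 (0.17). The S100, haptoglobin and inflammasome list held 6 of 20 (0.34). The STAT3 and IL-6 family held 0 of 30, and cytokines and chemokines 0 of 37.

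**Figure D5:**
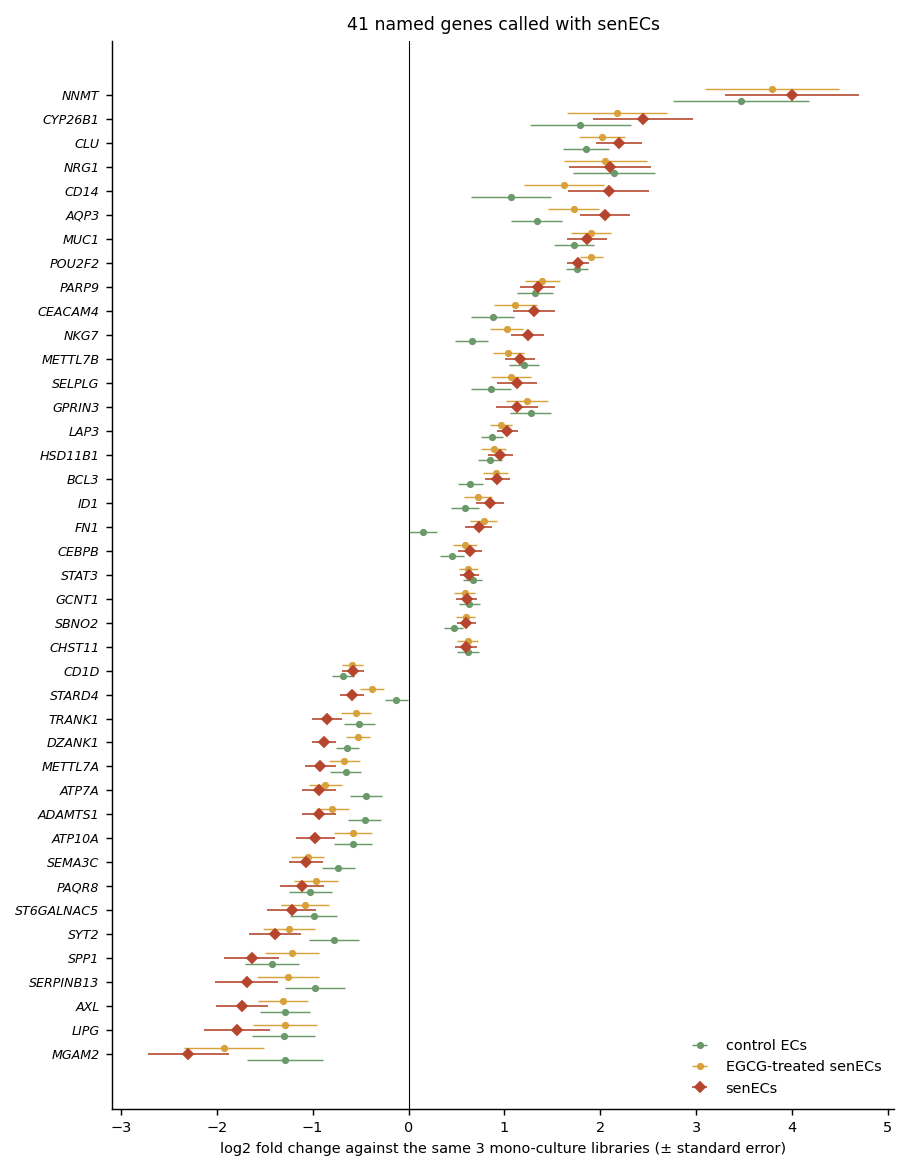
Log2 fold change against the same 3 mono-culture libraries, with standard errors, of the 41 named genes called with senECs (diamonds), beside the values with control ECs and EGCG-treated senECs (circles). The signs are the same in all 3 co-cultures. POU2F2 and STAT3 lie together, while FN1 and STARD4 lie near 0 with control ECs, at 0.15 and -0.13.

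The direct test of senECs against EGCG-treated senECs also called 0 genes in edgeR and 0 in DESeq2, with 575 genes (2.22%) at an unadjusted p under 0.05. With a term for the replicate number edgeR called 13, or 1 with numbers 3 and 5 joined. Of the 80 genes, 4 stood at an unadjusted p under 0.05, and of the named genes only DZANK1, with a difference of -0.35 (SE 0.13, unadjusted p = 0.0114, adjusted p = 1). Its levels were 18.8, 20.6 and 16.7 CPM with senECs and 23.9, 24.7 and 23.2 CPM with EGCG-treated senECs. The 2 groups did not overlap, but the share of all genes without overlap between them was not counted.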

How the data were processed

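Total RNA of THP1 cells was sequenced as paired 150-base reads by the study. A table of 58735 genes was deposited by the authors, whose values are read counts as whole numbers with no normalization. The submitters' processing notes name HISAT2 and hg38, while the counting program, the annotation and its use of strand are not given in the sources used here. All 57169 distinct symbols are in GENCODE release 29, from which positions were taken. A further 4 columns of the table match no described sample and were not used, and 23968 genes had no count in the 12 libraries.

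Differential expression was tested with edgeR 4.0.16 (quasi-likelihood, TMM) in R 4.3.3, with limma 3.58.1 loaded by it, in 1 model of all 12 libraries with the group as its only term, for the 25873 genes whose counts summed to 10 or more. A gene was called at a Benjamini-Hochberg adjusted p under 0.05 with no minimum fold change. The study's own test, DESeq2 (1.42.0 here), was an alternative. Standard errors were obtained from F, as the absolute log2 fold change over its square root. Replicate pairs within groups differed by more than sampling noise (chi-square per degree of freedom of 9.23 or more). An exact permutation test of 3 against 3 libraries cannot go below p = 0.1. Both models were tested on simulated libraries that were independent and held no effect of the replicate number. That check does not cover such an effect.

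The comparison, its 34 gene lists and its motifs were chosen with earlier results of these data known. The rule for named genes takes up to 15 called genes per direction by size, with a mean of at least 1 CPM in the higher group and no overlap between groups, every called member of a list, and the genes that the study displayed or measured by qRT-PCR. That gave 59 genes, 41 of them called, and any other gene was named after its values were seen. Numbers 1 and 2 occur in both groups, and deviations of same-numbered libraries correlated at 0.577 and 0.0542. Mono-culture replicate 3 and senEC replicate 5 correlated at 0.370, and mono-culture replicate 1 and senEC replicate 5 at -0.528. The groups share only numbers 1 and 2, and no label ties a number to a shared culture. The main fit therefore has no term for the number, and fits with that term called more genes, as given below. Alternatives were other scaling, filters, tests and sample sets, the replicate block, and each library left out in turn. Python 3.11.15 with pandas 2.3.3, numpy 2.4.6 and matplotlib 3.10.9 served for summaries and plots.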

Additional observations from a re-analysis of the deposited data

How the results depend on the processing

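The called genes, 80 for senECs against mono-culture and 0 for senECs against control ECs and against EGCG-treated senECs, changed with the test, the filter and the sample set. For senECs against mono-culture, DESeq2 called 347, every gene with a count 588, only libraries numbered 1 and 2 42, and leaving out 1 library 22 to 260. With the replicate block the number was 709, and 1407 with numbers 3 and 5 joined. The 80 genes were among the called in both blocked fits. Size factors (78), edgeR's own filter (65), a minimum of 10 counts in each library (60) and only the 6 libraries (65) stayed within 1.5 times. For senECs against control ECs, every gene with a count gave 114, libraries numbered 1 and 2 gave 2, the replicate block 153 and 268 with numbers 3 and 5 joined, and leaving out 1 library 0 to 1. For senECs against EGCG-treated senECs, every gene with a count gave 14 and the replicate block 13, or 1 with numbers 3 and 5 joined. The other alternatives run left both direct comparisons at 0. The cause of these differences was not tested. The correlations of library deviations ran from 0.457 to 0.577 for number 1 over all pairs of groups. Those of number 2 were lower and did not always favour the same number. Among the senEC libraries, mono-culture replicate 2 was closest to replicate 5 (0.218). Between senECs and control ECs the correlations were 0.457 for number 1 and 0.267 for number 2, and 0.534 for 5 with 3. Against mono-culture, the adjusted p under the replicate block was 0.0023 for MYD88, 5.78e-19 for IL7R, 0.00673 for IL1R1 and 0.00855 for OSMR, and with numbers 3 and 5 joined it was 0.00105, 4.99e-16, 0.00432 and 0.0318.

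No called named gene reversed. Some uncalled ones did. With libraries numbered 1 and 2 only, CXCL8 was at -0.27 and IL6 at -0.86 on the log2 scale, and under the replicate block CXCL8 was at -0.10, and IL6 at -0.12 with numbers 3 and 5 joined. With 1 library left out, the ranges were -0.46 to 0.47 for CXCL8, -0.73 to 1.07 for IL1B, -0.090 to 0.45 for CCL5, -0.069 to 1.38 for CCL2, -0.17 to 2.25 for MMP9, -0.025 to 0.48 for NFKB1, -0.99 to 0.45 for IL6, -0.59 to 0.10 for IL12B, -0.070 to 0.49 for SAA2 and -1.47 to 0.72 for IL1A. For depth, a gene with no counts in 1 of the 6 libraries cannot be told from one at 0.155 to 0.187 CPM there.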

Other observations

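Some gene groups outside the inflammatory lists are given here as values. The glycolytic enzymes GAPDH, often used as a reference in qRT-PCR, and LDHA lay higher in all 3 senEC libraries. GAPDH was at 762, 744 and 747 CPM in mono-culture and at 927, 980 and 1262 CPM with senECs (log2 fold change 0.49, SE 0.12, edgeR adjusted p = 0.0842, DESeq2 adjusted p = 0.00587). LDHA was at 806, 838 and 804 CPM and at 1025, 1088 and 1321 CPM (0.49, SE 0.12, edgeR adjusted p = 0.0842). Neither gene overlapped between the groups, which held for 16.7% of all genes tested. The 10 reference genes examined were all above 0, with a median of 0.13, or 0.03 without senEC replicate 5, and 0 were called in edgeR and 1, GAPDH, in DESeq2.

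IDO1, which degrades tryptophan, had 12, 31 and 15 counts in mono-culture and 1, 3 and 4 counts with senECs (-2.78, SE 0.79, edgeR adjusted p = 0.175). The scavenger receptor MARCO had 10, 11 and 11 counts and 34, 23 and 46 counts (1.68, SE 0.42, edgeR adjusted p = 0.106). DNASE2, the lysosomal DNase, was at 23.9, 29.1 and 25.6 CPM and at 13.2, 18.6 and 11.7 CPM (-0.85, SE 0.18, edgeR adjusted p = 0.0522). None of these 3 genes overlapped between the groups, which held for 16.7% of all genes tested. None passed the threshold in edgeR, while DNASE2 was called in DESeq2.

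The other lists examined had 0 called genes in edgeR. At an unadjusted p under 0.05 they held 0 to 8 genes in the higher direction and 0 to 2 in the lower. Over all genes tested the shares were 5.76% and 5.24%. In the higher direction stood 8 of 39 lysosomal genes, 7 of 30 S phase genes and 6 of 25 NRF2 and antioxidant genes. DESeq2 called 2 genes among the cytokine and growth factor receptors, 2 among the scavenger and lipid genes, and 1 each among p53 targets, lysosomal genes and early genes. The edgeR medians were 0.16 for S phase (27 of 30 genes above 0), 0.09 for G2/M phase, 0.03 for p53 targets, 0.11 for lysosomal genes, 0.14 for NRF2 and antioxidant genes, 0.09 for unfolded protein and stress genes, 0.02 for early genes and LPS feedback, 0.03 for cytokine and growth factor receptors, 0.04 for scavenger and foam-cell lipid genes, 0.11 for chemoattractant receptors and -0.10 for stromal markers. Without senEC replicate 5 these medians were, in the same order, 0.12, 0.08, -0.05, -0.01, 0.05, 0.05, -0.12, 0.003, -0.08, -0.01 and 0.05.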
